A study of Mus musculus with 12 samples.

Results

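The second step of endoderm differentiation in control F9 cells was described by setting the 2 control arrays of 6 d against the 2 control arrays of 72 h, chosen by their titles (CTL 6d and CTL 72h). They are 4 of the 12 arrays of the series, and the step was measured across all 11621 detected genes. F9 is a mouse teratocarcinoma line that grows as undifferentiated stem-like cells and forms endoderm in culture. The 72 h cells had spent 3 days in retinoic acid. The 6 d cells had spent the same 3 days in retinoic acid and then 3 more in retinoic acid together with cAMP. Both groups are labelled wild type for Kdm3a, the histone demethylase the series studies, and the labels do not say whether the control cells carry an empty vector. The other arrays are untreated control cells (0 h) and cells with the Kdm3a knock-down construct pRS-kdm3a at the same 3 stages, 2 arrays for each group. The cAMP and the 3 further days came together, and no retinoic acid arm without cAMP at 6 d was analysed here, so their parts in the step cannot be told apart.

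Retinoic acid turns F9 cells into cells that resemble primitive endoderm of the early mouse embryo. Raising cAMP activates protein kinase A, which phosphorylates the transcription factor CREB, and moves these cells on to parietal endoderm. In the embryo, parietal endoderm lines the yolk sac cavity and secretes Reichert's membrane, a thick basement membrane of collagen IV, laminin and nidogen. It is known for its keratins, thrombomodulin, tissue plasminogen activator and a receptor for parathyroid hormone-related peptide.

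Levels are given as normalized log2 intensity, on which a difference of 1 is a 2-fold change, and the level of one probe cannot be set against that of another. Before normalization the 72 h arrays of both cell types had the brightest upper end of the series. Their 95th percentile of raw intensities was 2162 to 2533 where the remaining arrays had 908 to 1720. The 4 arrays of 72 h also resembled each other on probes that no array detected (correlations of 0.17 to 0.25), so a batch of arrays cannot be told apart from the stage. Control 6 d replicate 2 resembled knock-down 6 d replicate 2 and knock-down 0 h replicate 2 in the same way (0.12 to 0.15). The control replicates of 72 h correlated at 0.993 over the tested genes and those of 6 d at 0.971. The median gap between the paired arrays of a gene was 0.16 at 72 h and 0.35 at 6 d on the log2 scale. In bulk RNA, fewer cells of a type and less RNA per cell cannot be told apart. The labels call the arrays biological replicates without saying what separates them.

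From 72 h to 6 d, 179 of 11621 genes rose (1.54%) and 115 fell (0.990%) at a limma adjusted p under 0.05, or 2.53% in either direction. Of these, 162 rises and 107 falls were at least 2-fold, while 41 rises and 4 falls were at least 4-fold. The median change was 1.51 among the risers, -1.28 among the fallers and -0.00 over all genes. Before adjustment, 2186 genes had p under 0.05. Both sides included genes undetected at 1 of the 2 stages, which could pass the detection filter through other arrays. Of the 179 risers, 38 were undetected on both 72 h arrays, and 32 of these were undetected at 0 h too. Of the 115 fallers, 32 were undetected on both 6 d arrays. Counts of called genes in the lists below are to be read against the 2.53% of all genes. The lists were chosen with earlier results of these data known, so their shares are descriptions.

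The number of calls was lower when any 1 of the 4 control arrays of 72 h and 6 d was left out. Without control 72 h replicate 1 there were 26 rises and 3 falls, and without replicate 2 there were 26 and 0. Without control 6 d replicate 1 there were 93 and 80, and without replicate 2 there were 74 and 10. Leaving 1 array out leaves its group with a single array that is assumed to vary like the other groups. It also takes a pair of replicates out of the estimate of the spread. A lost call therefore cannot be assigned to the array that was left out. A call that held in all 4 of these fits is named as such where its gene is described in full, and any other call was lost in at least 1 of them. Of the 85 called genes named in this text, 64 lost their call without control 72 h replicate 1, 65 without replicate 2, 26 without control 6 d replicate 1 and 47 without replicate 2. With each array centred on its median in place of quantile normalization, the median change of all genes was -0.45, and 183 genes rose and 2012 fell. The shift was not the same for every gene. List medians are therefore given with their median-centred value and counts beside them. The centred values and falls of a list are to be read against the -0.45 and the 2012 of 11621 genes.

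**Figure D1:**
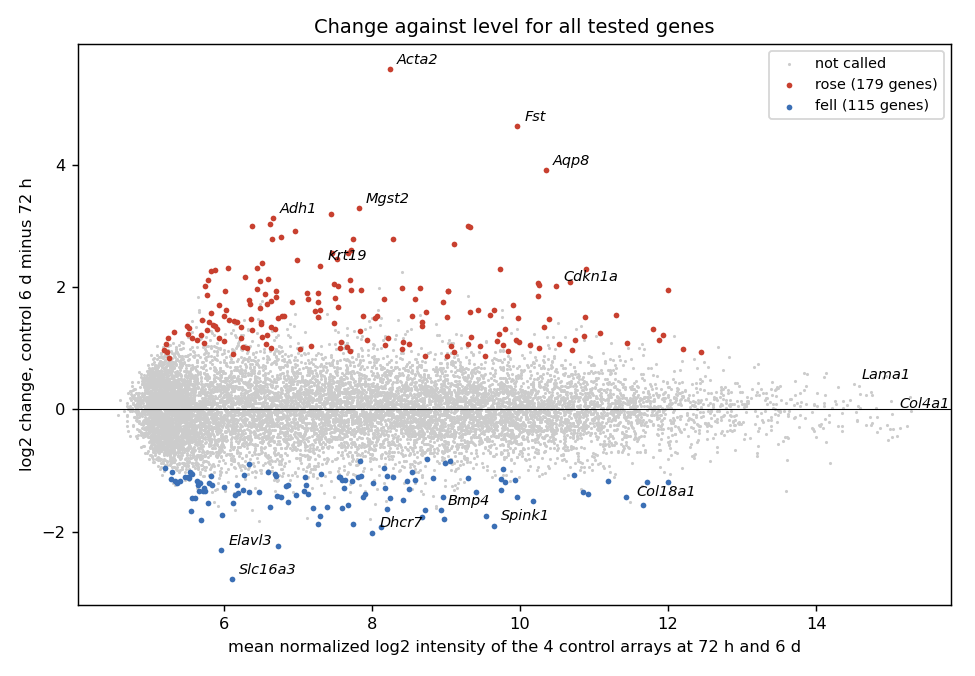
Log2 change of each of 11621 genes from 72 h to 6 d in control cells (vertical axis) against its mean normalized log2 intensity over the 4 arrays (horizontal axis). Red points are the 179 genes that rose and blue points the 115 that fell, with Acta2, Fst and Aqp8 highest and Slc16a3 lowest. The basement membrane genes Col4a1 and Lama1 lie near 0.

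The largest rise was in Acta2, which encodes smooth muscle alpha-actin. Its level was 5.47 and 5.44 on the 72 h arrays and 10.77 and 11.27 on the 6 d arrays, and all 4 were called detected. At 0 h the mean was 5.50, so Acta2 was as low after 3 days of retinoic acid as in untreated cells and high at 6 d alone. The change was 5.56 on the log2 scale, or 47.1-fold (SE 0.35, adjusted p = 6.38e-05). It had the same direction with each of 4 probes, which ran from 2.17 to 5.56, so the size of the rise depends on the probe. The other contractile genes did not follow by a like amount. Of 28 tested members of the contractile list 3 rose and 0 fell (10.7% called, against 2.53% of all genes). The median change was 0.28 (-0.01 with median centring, under which 2 rose and 2 fell). Acta1, skeletal muscle alpha-actin, was undetected at 72 h (4.65 and 4.75) and measured 6.11 and 5.82 at 6 d, a rise of at least 1.49-fold. Zyx, the focal adhesion protein zyxin, went from 10.53 and 10.37 to 11.49 and 11.91 (1.25, adjusted p = 0.0433). The smooth muscle genes Tagln, Cnn1 and Des had changes of 0.44, -0.05 and 0.18, with adjusted p of 0.465, 0.941 and 0.768. Cnn1 was undetected on all 4 arrays, and Tagln was detected only on 1 array of 6 d, so their changes are near background. Srf, the serum response factor, and its muscle coactivator Myocd had changes of 0.23 and -0.27 (adjusted p = 0.568 and 0.691). Myocd was undetected on both 6 d arrays. Of the calls here, Acta2 held without each single array, while Acta1 and Zyx held in none of those fits.

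The promoters of both actins are shown because their genes led the contractile list. The windows come from RefSeq (GRCm38.p6), from 250 bases before to 50 after the gene's start, and both genes lie on the minus strand. The Acta2 window is chr19:34255324-34255623 and the Acta1 window is chr8:123894726-123895025. Capitals mark the CArG box, the motif that serum response factor binds, in Acta1 and a looser form in Acta2 in which at most 1 of the 6 inner letters is C or G.
Acta2: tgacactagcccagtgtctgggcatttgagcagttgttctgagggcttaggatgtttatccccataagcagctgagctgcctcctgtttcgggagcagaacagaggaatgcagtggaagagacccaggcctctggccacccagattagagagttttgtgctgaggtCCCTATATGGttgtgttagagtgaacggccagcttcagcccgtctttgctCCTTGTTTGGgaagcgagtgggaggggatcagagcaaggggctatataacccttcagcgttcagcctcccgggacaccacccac
Acta1: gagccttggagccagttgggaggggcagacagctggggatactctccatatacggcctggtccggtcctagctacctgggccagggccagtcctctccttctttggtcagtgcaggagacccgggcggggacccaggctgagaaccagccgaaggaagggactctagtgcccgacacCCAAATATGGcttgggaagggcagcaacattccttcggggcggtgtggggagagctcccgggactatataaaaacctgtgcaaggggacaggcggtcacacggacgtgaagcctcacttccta
The matches began 84 and 34 bases before the start in Acta2 and 73 bases before it in Acta1. A window was found for 9369 tested genes, for 143 of the 179 risers and for 87 of the 115 fallers. Shares below count genes, and a gene with several windows counted once if any of them held the motif. The CArG box, which reads the same on both strands, was in 1.7% of all these windows, in 6 of the risers' (4.2%) and in 0 of the fallers'. The 6 were Acta1, Anxa5, Cited1, Mpeg1, Nfix and Trnp1. The looser form, which includes the strict one, was in 10.9% of all windows, 18.2% of the risers' and 6.9% of the fallers'. A match to these letters is a description of the window and not a binding site.

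Parietal endoderm genes were the list with the highest share of rises. This list too was chosen with earlier results of these data known, so its share is a description and not a test. Of 20 tested members 8 rose and 0 fell (against 2.53% called of all genes), with a median change of 1.17 (0.69 with median centring, under which 8 rose and 3 fell). On 13 of the 20 both 6 d arrays lay above both 72 h arrays, which held for 26.9% of all genes. Fst encodes follistatin, a secreted protein that binds and neutralises activin. It measured 7.61 and 7.68 at 72 h and 12.52 and 12.03 at 6 d, a rise of 4.63 (SE 0.35, adjusted p = 0.000218), or 24.8-fold. Aqp8, a water channel, went from 8.50 and 8.29 to 12.69 and 11.92 (3.91, SE 0.41, adjusted p = 0.000991). The 6 d arrays of both genes lay far above the 72 h arrays. Aqp8 had also gone up from a mean of 5.39 at 0 h, whereas Fst stood at 7.11 there. Pth1r, the receptor for parathyroid hormone and its related peptide, went from 7.87 and 7.64 to 10.79 and 10.15 (2.71, SE 0.37, adjusted p = 0.00432).

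Thbd, which encodes the anticoagulant receptor thrombomodulin, was undetected at 72 h (4.82 and 5.00) and measured 7.26 and 7.19 at 6 d. It rose at least 3.56-fold (adjusted p = 0.000866), and was named after its values were seen, as were Cited1 and Snai1. Cited1, a coactivator of transcription, went from 7.57 and 7.75 to 9.48 and 9.82 (1.99, adjusted p = 0.00185). Snai1, a repressor that acts in epithelial to mesenchymal transition, went from 8.42 and 8.09 to 9.66 and 9.87 (1.51, adjusted p = 0.0342). The 6 d arrays of each gene stood above its 72 h arrays, as for 26.9% of all genes. Plat, tissue plasminogen activator, was at 10.40 and 10.45 and then at 12.08 and 11.18 (1.20, adjusted p = 0.103). The lowest member was Podxl, a sialomucin of the cell surface, with a change of -0.98 (adjusted p = 0.208). Fst, Aqp8, Thbd, Cited1 and the keratin Krt19 held their calls without each single array. Over those 4 fits the list had 5 to 6 rises and 0 to 1 falls.

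Keratins, the intermediate filaments of epithelia, rose in 4 of 17 tested members of the list of keratins and desmosomes, and 0 fell (23.5% called). The median change of the list was -0.10 (-0.32 with median centring, under which 4 rose and 3 fell). Krt23 was undetected at 72 h (4.97 and 5.23) and measured 8.01 and 8.27 at 6 d, a rise of at least 6.70-fold (adjusted p = 0.000866). Krt19 went from 6.15 and 6.11 to 8.05 and 8.91 (2.35, SE 0.27, adjusted p = 0.00179). Krt18 measured 6.94 and 5.86 at 72 h, the widest gap between 72 h replicates among the named genes, and 8.58 and 9.31 at 6 d (2.55, SE 0.55, adjusted p = 0.0391). Krt8, the partner of Krt18 in the filament, had values of 10.29 and 10.30 and then 11.17 and 11.70 (1.14, adjusted p = 0.121). Krt15 was undetected at 72 h and rose at least 2.19-fold. Dsg2, a desmosomal cadherin, was the lowest member at -0.95 (adjusted p = 0.180). Krt23 and Krt19 held their calls without each single array, while Krt18 held in none of those fits, with adjusted p of 0.0643 to 0.338.

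The genes of the basement membrane itself did not pass the test in either direction. Of 20 tested members 0 rose and 0 fell, where 2.53% of all genes were called, so the count is near the background. The median change was -0.05 (-0.34 with median centring, under which 4 fell). With median centring 2012 of all 11621 genes fell, and the median of all genes was -0.45. Col4a1, a collagen IV chain, measured 15.01 and 15.11 at 72 h and 15.23 and 14.75 at 6 d (-0.07, SE 0.29, adjusted p = 0.929), with a 0 h mean of 8.99. Col4a2, the chain that pairs with it, measured 13.87 and 13.80 and then 14.81 and 14.06 (0.60, adjusted p = 0.422). The 6 d arrays of Col4a1 overlapped its 72 h arrays, and those of Col4a2 did not. The laminin chain Lama1 stood at 14.27 and 14.36 and then at 15.09 and 14.36 (0.41, adjusted p = 0.493). The largest change of the list was that of Col18a1, the collagen that yields endostatin, from 12.39 and 12.08 to 11.06 and 10.39 (-1.51, adjusted p = 0.117). Nid2, a nidogen, had a change of -1.11 (adjusted p = 0.205). The sign of Col4a1 turned without control 6 d replicate 2 (0.18) and with median centring (0.27), and that of Lamc1 (0.26) without control 6 d replicate 1 (-0.18).

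The enzymes that modify collagen and the chaperones of the endoplasmic reticulum did not pass either. Of 20 collagen processing genes 0 were called, with a median of 0.24 (-0.17 with median centring, under which 2 fell). Its largest values were those of P4ha2, a prolyl hydroxylase, at 1.02 (adjusted p = 0.149), and Bmp1, the procollagen C-proteinase, at 1.00 (adjusted p = 0.183). Of 21 chaperones and folding enzymes 0 were called (5 fell with median centring), with Hspa5 (BiP) at -0.84 and Ero1b, an oxidoreductase, at -0.82 (adjusted p = 0.157 and 0.0944). In these lists the 6 d replicates stood apart. Control 6 d replicate 1 exceeded replicate 2 by a median of 0.74 over basement membrane genes, 0.66 over collagen processing and 0.70 over chaperones. The 72 h replicates differed by 0.07, 0.01 and -0.09 over the same genes. The lysosome list had the widest gap of this kind (0.83, with 0 of 27 members called). The knock-down 6 d arrays had gaps of 1.15, 0.68, 0.51 and 0.86 over these 4 lists in the same order of replicates. The part of this gap in the missing calls was not tested.

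**Figure D2:**
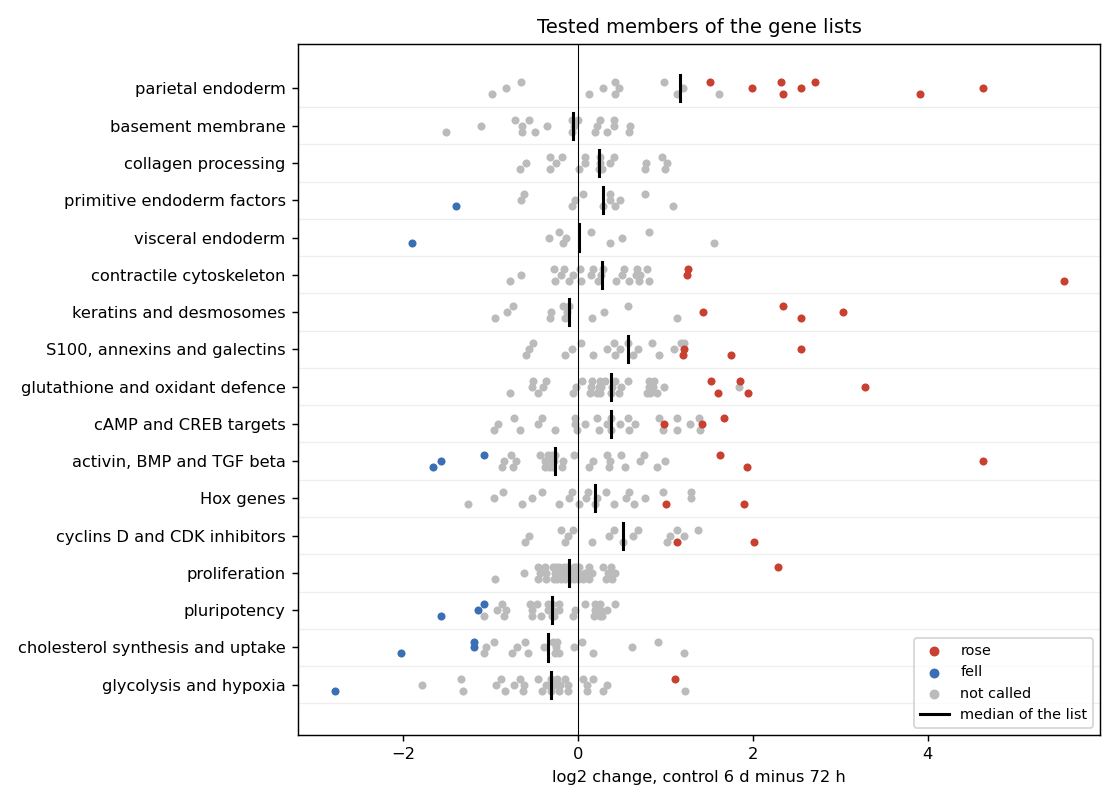
Log2 change from 72 h to 6 d in control cells (horizontal axis) of the tested members of 17 gene lists, 1 point for each gene and a black bar at each list's median. Red points rose, blue points fell and grey points did not pass the test. The parietal endoderm list has 8 red points and a median of 1.17, and the basement membrane list has none and a median of -0.05.

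The factors that specify primitive endoderm were already detected at 72 h, and 1 of them was called. Of 13 tested members 0 rose and 1 fell, with a median of 0.29 (-0.20 with median centring, under which 3 fell). Gata6, a zinc finger factor of the lineage, measured 12.00 and 11.87 at 72 h and 12.28 and 12.45 at 6 d (0.43, adjusted p = 0.363), with a 0 h mean of 5.24. The HMG box factor Sox17 measured 9.56 and 9.26 and then 9.78 and 10.00 (0.48, adjusted p = 0.380; -0.06 with median centring). Gata4 measured 7.45 and 7.19 and then 7.36 and 5.98 (-0.65, adjusted p = 0.378), and its sign turned without control 6 d replicate 2 (0.04). The gene that fell was Foxa1, a forkhead factor of endoderm. It was at 7.92 and 7.75 at 72 h and at 6.48 and 6.42 at 6 d (-1.39, SE 0.20, adjusted p = 0.00617), after a 0 h mean of 4.78. The visceral endoderm list, which marks the other extraembryonic endoderm, had 0 rises and 1 fall among 10 tested members. That fall was Spink1, a secreted trypsin inhibitor, from 10.49 and 10.70 to 8.83 and 8.56 (-1.90, adjusted p = 0.0372). Ttr, transthyretin, was the highest of that list at 1.56, which did not pass.

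In the pluripotency list 3 genes fell, and the core factors Pou5f1 and Nanog did not pass the test. Of 33 tested members 0 rose and 3 fell (9.09% called), with a median of -0.29 (-0.76 with median centring, under which 10 fell). Lefty1, a secreted antagonist of Nodal, measured 12.49 and 12.39 at 72 h and 11.09 and 10.67 at 6 d (-1.56, adjusted p = 0.0377). Its 0 h mean was 9.95, so it stood above the untreated level at both stages. Gdf3, a ligand of the TGF beta family, went from 11.15 and 11.38 to 10.39 and 9.99 (-1.07, adjusted p = 0.0416). Dnmt3l, a cofactor of de novo DNA methylation, went from 10.44 and 10.18 to 9.26 and 9.08 (-1.14, adjusted p = 0.0450). Both had been lowered already from 0 h means of 12.78 and 12.81. Pou5f1, which encodes Oct4, was at 11.98 and 12.32 and then at 11.86 and 12.00 (-0.22, adjusted p = 0.809). Nanog was at 12.26 and 12.30 and then at 11.42 and 12.09 (-0.52, adjusted p = 0.438). None of these falls held in any of the fits without a single array.

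The list of cAMP and CREB targets holds genes that cAMP is known to induce and components of the pathway itself. Of 30 tested members 3 rose and 0 fell (10.0% called), and the median was 0.38 (-0.02 with median centring, under which 3 rose and 3 fell). Fosl2, an AP-1 subunit, measured 6.76 and 6.65 at 72 h and 8.03 and 8.72 at 6 d (1.67, SE 0.29, adjusted p = 0.0151). Junb, another AP-1 subunit, measured 6.76 and 6.80 and then 8.12 and 8.27 (1.42, SE 0.26, adjusted p = 0.0220). Pkia, an inhibitor of protein kinase A, went from 7.93 and 7.91 to 8.95 and 8.86 (0.99, adjusted p = 0.0364). For each of the 3 genes both 6 d arrays were above both 72 h arrays, which held for 26.9% of all genes. Immediate early genes that did not pass were Fos (1.14, adjusted p = 0.0660) and Egr1 (1.14, adjusted p = 0.128). Crem, whose inducible product ICER is a classical cAMP target, had a change of 0.58 (adjusted p = 0.471). The scaffold Akap12 was the lowest at -0.96 (adjusted p = 0.197). Fosl2 kept its call without control 6 d replicate 1 (adjusted p = 0.0202) and lost it without each of the other arrays (0.105 to 0.175), while Junb and Pkia lost theirs in all 4 fits.

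Promoters were searched on both strands for the cAMP response element, the motif that CREB binds. The full element TGACGTCA was in 3.49% of the windows of all tested genes, in 2 of the risers' (1.4%) and in 1 of the fallers' (1.15%). The half-site TGACG, which the full element contains, was in 33.9% of all windows, 20.3% of the risers' and 23% of the fallers'. In the list of cAMP and CREB targets, 16 of 22 windows held the half-site (72.7%). The AP-1 motif TGANTCA was in 6.48% of all windows, 7.69% of the risers' and 4.6% of the fallers'. The windows of the 2 risers with the full element are shown with that element in capitals, and the window of Junb with its half-site in capitals. They are chr7:6730370-6730669 for Peg3, chr7:45526219-45526518 for Ppp1r15a and chr8:84978699-84978998 for Junb, all on the minus strand of GRCm38.p6.
Peg3: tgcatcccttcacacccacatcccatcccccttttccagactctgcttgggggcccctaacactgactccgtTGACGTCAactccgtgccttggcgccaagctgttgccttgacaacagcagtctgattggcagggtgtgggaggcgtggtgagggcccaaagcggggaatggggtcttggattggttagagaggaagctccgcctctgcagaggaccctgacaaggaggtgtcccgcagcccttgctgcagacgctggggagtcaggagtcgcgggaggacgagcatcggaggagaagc
Ppp1r15a: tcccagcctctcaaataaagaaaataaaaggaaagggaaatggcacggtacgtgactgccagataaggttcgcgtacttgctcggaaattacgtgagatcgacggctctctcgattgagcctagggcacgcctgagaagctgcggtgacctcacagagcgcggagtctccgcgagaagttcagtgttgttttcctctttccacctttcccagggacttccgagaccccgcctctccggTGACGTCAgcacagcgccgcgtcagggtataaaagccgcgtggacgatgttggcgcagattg
Junb: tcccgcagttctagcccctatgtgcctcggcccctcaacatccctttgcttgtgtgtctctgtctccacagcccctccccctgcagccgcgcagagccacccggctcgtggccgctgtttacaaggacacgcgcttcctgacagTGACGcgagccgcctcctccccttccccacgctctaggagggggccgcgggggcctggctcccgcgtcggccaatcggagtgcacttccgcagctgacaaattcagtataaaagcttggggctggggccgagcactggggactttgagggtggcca
Peg3, a paternally expressed imprinted gene, measured 9.85 and 9.42 at 72 h and 11.87 and 11.56 at 6 d (2.08, SE 0.32, adjusted p = 0.00849). Ppp1r15a, a phosphatase subunit of the stress response that was named after its values were seen, went from 8.62 and 8.67 to 9.42 and 9.74 (0.94, adjusted p = 0.0408). Both genes were higher on each 6 d array, as were 26.9% of all genes. Without each of the 72 h arrays the Peg3 call was lost (adjusted p = 0.0627 and 0.129), and that of Ppp1r15a was lost in all 4 fits.

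Transcripts of activin, BMP and TGF beta signalling had calls in both directions. Of 35 tested members 3 rose and 3 fell (17.1% called), and the median was -0.26 (-0.75 with median centring, under which 3 rose and 8 fell). The risers were the antagonists Fst and Nog and the receptor Tgfbr2, and the fallers were the ligands or antagonists Bmp4, Gdf3 and Lefty1. Nog, the BMP antagonist noggin, was undetected at 72 h (4.87 and 5.24) and measured 7.12 and 6.88 at 6 d, a rise of at least 3.04-fold (adjusted p = 0.00607). Bmp4 measured 9.69 and 9.83 at 72 h and 8.09 and 8.12 at 6 d (-1.65, SE 0.21, adjusted p = 0.00308). Its 0 h mean was 12.79, so the level was lower at each later stage. Tgfbr2, the type II receptor for TGF beta, went from 8.48 and 8.77 to 10.61 and 9.90 (1.63, adjusted p = 0.0151), and 1 of its 3 tested probes moved the other way. Bmp4 lost its call without control 72 h replicate 2 (adjusted p = 0.0690) and Nog without each 72 h array (0.127 and 0.0537).

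In the WNT list 2 of 27 tested members rose and 0 fell (7.41% called). The median was -0.16 (-0.49 with median centring, under which 2 rose and 10 fell). Both risers were ligands. Wnt4 was undetected at 72 h (5.31 and 5.09) and measured 7.25 and 7.49 at 6 d, a rise of at least 3.93-fold (adjusted p = 0.00604). Wnt5a went from 5.94 and 6.14 to 7.96 and 7.64 (1.76, adjusted p = 0.00827). Each lost its call without either 72 h array (adjusted p of 0.0691 to 0.133). Of 23 FGF and ERK feedback genes 1 fell (11 with median centring), Phlda1, a pleckstrin homology-like protein induced by growth factors, from 10.35 and 10.47 to 9.01 and 9.17 (-1.32, adjusted p = 0.0490). Of 25 Hox genes, the homeobox genes of body axis identity, 2 rose and 0 fell, or 8.00% called (1 and 6 with median centring). Hoxc9 went from 6.25 and 6.12 to 7.97 and 8.20 (1.90, SE 0.22, adjusted p = 0.00165) and held its call without each single array. Hoxa5, already at 9.79 and 9.72 at 72 h from a 0 h mean of 4.81, reached 10.54 and 10.99 (1.01, adjusted p = 0.0404). Phlda1 lost its call in all 4 of those fits and Hoxa5 in 3 of them.

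Among genes of the cell cycle, 2 that restrain division rose. Of 42 replication and mitosis genes 1 was called (2.38%), which is near the 2.53% of all genes. Cdkn1a, the cyclin-dependent kinase inhibitor p21, measured 9.42 and 9.55 at 72 h and 11.23 and 11.76 at 6 d (2.01, SE 0.23, adjusted p = 0.00158), or 4.02-fold. Mxd4, an antagonist of Myc, went from 9.42 and 9.34 to 10.45 and 10.58 (1.13, adjusted p = 0.0151). These were 2 of 19 tested cyclins and inhibitors (10.5% called), of which 0 fell (1 rose and 2 fell with median centring). Ccnd1, cyclin D1, measured 8.58 and 8.38 and then 9.41 and 9.81 (1.13, adjusted p = 0.0545), and Ccnd2 had a change of 1.37 (adjusted p = 0.105). In the proliferation list 1 of 42 members rose and 0 fell, with a median of -0.10 (-0.59 with median centring, under which 1 rose and 4 fell). That riser was Kif23, a mitotic kinesin (2.29, adjusted p = 0.00136), but 3 of its 4 tested probes moved the other way, so its direction depends on the probe. The lowest member was Mcm6, a replicative helicase subunit, at -0.95. In the list of p53 targets 2 of 24 rose, Cdkn1a and the death receptor gene Tnfrsf10b (2.46, adjusted p = 0.0264). For Tnfrsf10b, 2 of 4 probes moved the other way, and its 72 h arrays (6.70 and 5.92) lay below the 0 h mean of 8.34. Cdkn1a and Kif23 held their calls without each single array.

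Genes of glutathione and oxidant defence rose in 5 of 38 tested members and fell in 0 (13.2% called), with a median of 0.38 (-0.03 with median centring, under which 6 rose and 3 fell). Mgst2, a microsomal glutathione transferase, went from 6.05 and 6.31 to 9.97 and 8.98 (3.29, SE 0.33, adjusted p = 0.000866). The cytosolic transferases Gstm1 (3.86-fold) and Gstm2 (3.03-fold) rose, with adjusted p of 0.00660 and 0.00454, and as close paralogs they may share signal on the arrays. Gpx3, a secreted glutathione peroxidase, went from 9.23 and 9.42 to 11.43 and 10.93 (1.85, adjusted p = 0.00977). Nqo1, a quinone reductase, went from 6.89 and 7.35 to 8.08 and 9.21 (1.52, adjusted p = 0.0416). In each of these genes the arrays of 6 d lay above those of 72 h, as they did in 26.9% of all genes. Mgst2 held its call without each single array, and over those fits the list had 1 to 5 rises. Of 31 genes of the amino acid stress response 2 rose and 0 fell (1 and 3 with median centring). They were the transcription factors Ddit3 (CHOP), from 7.86 and 8.26 to 9.86 and 10.15 (1.94, SE 0.21, adjusted p = 0.00135), and Atf5, from 11.71 and 11.72 to 12.73 and 12.68 (0.99, adjusted p = 0.0253). Ddit3 held without each single array.

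The calcium-binding S100 proteins, annexins and galectins had 4 rises and 0 falls among 23 tested members (17.4% called), with a median of 0.57 (0.16 with median centring, under which 4 rose and 2 fell). Lgals9, a galectin, measured 6.05 and 6.32 at 72 h and 8.40 and 9.07 at 6 d (2.55, SE 0.27, adjusted p = 0.000991), and held its call without each single array. Anxa2 and Anxa5, annexins that bind membrane phospholipid, rose by 1.21 and 1.20 (adjusted p = 0.0236 and 0.0383). S100a6 went from 8.07 and 8.10 to 9.69 and 9.99 (1.75, adjusted p = 0.0315). Its 0 h mean was 10.69, so the 6 d arrays lay between the 72 h and the untreated level. In the retinoid list 1 of 26 rose and 1 fell, or 7.69% called (2 and 5 with median centring). Adh1, an alcohol dehydrogenase that can oxidise retinol, was undetected at 72 h (5.22 and 4.98) and measured 7.96 and 8.50 at 6 d, a rise of at least 7.16-fold (adjusted p = 0.000300) that held without each single array. Crabp2, which carries retinoic acid to its receptors, fell from 8.33 and 8.04 to 7.10 and 6.95 (-1.16, adjusted p = 0.0264).

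Cholesterol synthesis genes were called in 1 direction only. Of 22 tested members 0 rose and 3 fell (13.6% called), and the median was -0.34 (-0.88 with median centring, under which 10 fell). Dhcr7, which makes cholesterol from 7-dehydrocholesterol, measured 9.05 and 8.99 at 72 h and 7.67 and 6.32 at 6 d (-2.02, SE 0.38, adjusted p = 0.0234). Its 6 d arrays were far apart, and both lay below the 72 h arrays. Sqle, squalene epoxidase, went from 12.59 and 12.59 to 11.71 and 11.09 (-1.19, adjusted p = 0.0450). Msmo1, a sterol methyl oxidase, went from 12.18 and 12.43 to 11.38 and 10.85 (-1.19, adjusted p = 0.0437). Mvk, mevalonate kinase, was the highest member at 1.21 (adjusted p = 0.0791), and Insig1, which holds the sterol sensor in the endoplasmic reticulum, stood at 0.92 (adjusted p = 0.186). All 3 falls kept their call without control 6 d replicate 1 and lost it without any other single array. The sterol regulatory element TCACNCCAC, which the SREBP factors bind, was in 0 of the 19 promoter windows found for this list and in 1.46% of all windows. In other metabolic lists, 1 of 31 lipid genes rose and 0 fell, or 3.23% called (1 and 9 with median centring). The riser was Pparg, a nuclear receptor of fat cells (1.79, adjusted p = 0.00977). Of 31 glycolysis and hypoxia genes, Pfkm, a phosphofructokinase, rose (1.11, adjusted p = 0.0471) and Slc16a3 fell, while with median centring 0 rose and 12 fell.

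Aqp8 was the only riser on the transport list. Of 30 tested water channels, solute carriers and ion transporters 1 rose and 3 fell (13.3% called), with a median of -0.33 (-0.76 with median centring, under which 1 rose and 12 fell). Slc16a3, which exports lactate, had the largest fitted fall of all named genes. It measured 7.71 and 7.29 at 72 h and was undetected at 6 d (4.63 and 4.81), a fall of at least 3.81-fold (adjusted p = 0.0261) that was lost in all 4 fits without a single array. The other of its 2 tested probes had a change of -0.11, so the size of the fall depends on the probe. Slco4a1, an organic anion transporter, went from 7.83 and 7.88 to 6.05 and 5.19, where 1 of 2 arrays detected it (-2.24, adjusted p = 0.0107). Slc27a2, a fatty acid transporter, measured 6.75 and 6.97 and then fell below detection, by at least 2.45-fold (adjusted p = 0.00575). Outside the list, the nucleoside transporter Slc29a2 likewise fell below detection, by at least 2.04-fold. The other of its 2 tested probes had a change of -0.30. The prostaglandin transporter Slco2a1 rose, from 6.42 and 6.27 to 9.61 and 8.67 (2.79, SE 0.53, adjusted p = 0.0249).

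The other genes of the 20 largest rises have varied known roles. Flrt2, a cell surface protein of neuronal guidance and adhesion, went from 6.00 and 5.72 to 9.33 and 8.77 (3.19, adjusted p = 0.000866) and was the only riser of 25 junction and adhesion genes (7 fell with median centring). In that list the gap junction gene Gjb2 was the 1 faller (at least 1.63-fold), and it had a change of 0.35 (adjusted p = 0.490) in knock-down cells. Spon2, an extracellular matrix protein, went from 7.59 and 8.01 to 11.13 and 10.48 (3.00). Hkdc1, a hexokinase, went from 7.78 and 7.91 to 11.31 and 10.33 (2.98) after a 0 h mean of 4.78. In all of these risers the 6 d values stood above the 72 h values by more than the gap between replicates, and their selection required arrays without overlap. Wfdc1, a secreted protein with a protease inhibitor fold, was undetected at 72 h and rose at least 5.65-fold, to 8.69 and 7.09. Pgam2, the muscle form of phosphoglycerate mutase, was undetected at 72 h and rose at least 6.30-fold, to 8.04 and 8.06. Fxyd3, a regulator of the sodium pump, rose by 2.91 and Plac8 by 2.78 (adjusted p = 0.00237 and 0.000487). Ugt1a10, a glucuronosyltransferase whose family shares exons, and Defa20, a defensin with close paralogs, had changes of 2.82 and 2.60, and which family member was measured is uncertain. Flrt2, Pgam2, Plac8 and Defa20 held their calls without each single array.

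**Figure D3:**
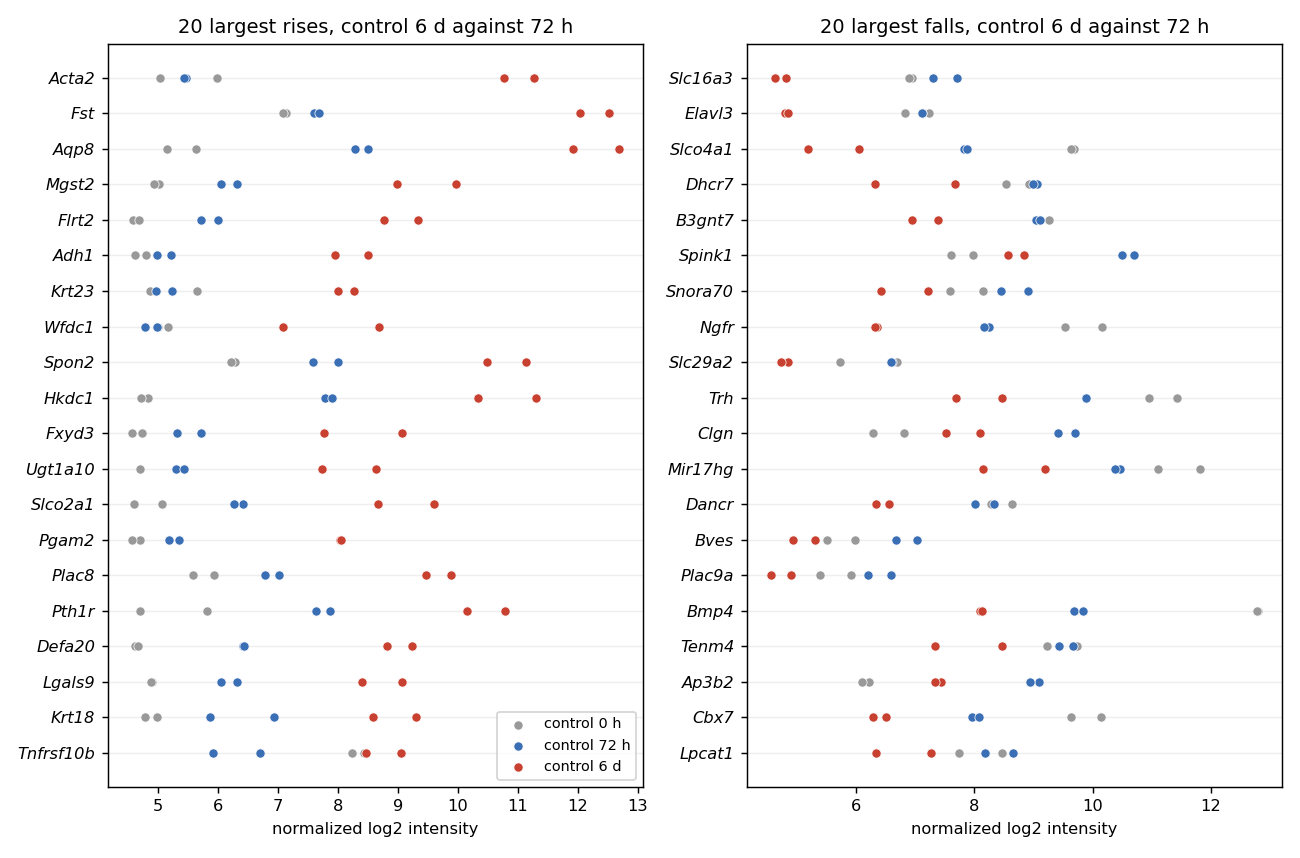
Normalized log2 intensity (horizontal axis) of the 20 largest rises and the 20 largest falls on each control array, with 2 points for each stage (grey 0 h, blue 72 h, red 6 d). The 6 d points lie above both 72 h points for each rise and below them for each fall, which the rule that picked these genes required. Acta2 is as low at 72 h as at 0 h.

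The other genes of the 20 largest falls have varied known roles. Elavl3, a neuronal RNA-binding protein, measured 7.11 and 7.12 at 72 h and was undetected at 6 d (4.80 and 4.84), a fall of at least 2.93-fold (adjusted p = 0.00477). The other of its 2 tested probes had a change of -0.91. Ngfr, the low affinity neurotrophin receptor, went from 8.24 and 8.16 to 6.35 and 6.32 (-1.87, adjusted p = 0.00977), below a 0 h mean of 9.85. Trh, the precursor of thyrotropin-releasing hormone, went from 9.88 and 9.88 to 8.46 and 7.69 (-1.80), below 11.20 at 0 h. These levels were lower at 6 d than at both earlier stages. Ap3b2, a neuronal vesicle coat subunit, went from 9.09 and 8.94 to 7.43 and 7.34 (-1.63, adjusted p = 0.00827), and Clgn, a chaperone best known in testis, from 9.42 and 9.70 to 8.09 and 7.52 (-1.76). Both remained above their 0 h means of 6.16 and 6.55. Mir17hg, the host transcript of the miR-17-92 cluster, went from 10.46 and 10.37 to 9.19 and 8.14 (-1.75, adjusted p = 0.0298). Dancr, a long non-coding RNA, went from 8.01 and 8.33 to 6.33 and 6.55 (-1.74, SE 0.22, adjusted p = 0.00299). Snora70, a small nucleolar RNA, had a change of -1.87 (adjusted p = 0.0300). Cbx7, a Polycomb protein, went from 7.95 and 8.08 to 6.51 and 6.28 (-1.62, adjusted p = 0.00827). B3gnt7, Tenm4, Lpcat1, Bves and Plac9a completed the 20 largest falls, Bves by at least 2.42-fold and Plac9a by at least 1.77-fold. The second tested probe of Bves had a change of -0.66, and the 3 probes of Tenm4 ran from -1.65 to -0.41. None of the 20 largest falls held in all 4 fits without a single array, against 11 of the 20 largest rises. These rises ran from 2.46 to 5.56 and these falls from -2.78 to -1.61 on the log2 scale, so the 2 sets differ in size of change. Among all 115 fallers, 80 were lower on control 6 d replicate 2 than on replicate 1. The 179 risers split into 87 higher on replicate 2 and 92 on replicate 1. The share of all genes lower on replicate 2 was not counted, so the split cannot be read as particular to the fallers.

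Where a gene stood at 0 h divides the calls further. Of the 179 risers, 112 had a 72 h mean above their 0 h mean and 174 a 6 d mean above it. Of the 115 fallers, 72 had a 72 h mean above their 0 h mean and 99 a 6 d mean below it. In 16 fallers, Foxa1, Spink1, Clgn, Ap3b2 and Lefty1 among them, the 6 d mean was above that of untreated cells. These stage patterns are descriptions, since the 72 h arrays enter both intervals. Picking genes by their change from 72 h to 6 d also bears on these counts. The same counts over all genes were not made.

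Several lists gave 0 calls. In lists of this size a share near the 2.53% of all genes would give few calls or none. None of 21 histone demethylases and H3K9 enzymes was called, with a median of -0.20 (-0.74 with median centring, under which 8 fell), Kdm5a at -1.07 and Kdm2a at -0.88 (adjusted p = 0.208 and 0.105). Kdm3a measured 9.78 and 9.90 at 72 h and 9.29 and 9.12 at 6 d (-0.63, SE 0.19, adjusted p = 0.115). Both 6 d arrays were lower, and the change did not pass. None of 20 interferon response genes and none of 24 ribosomal protein genes was called, with medians of 0.11 and -0.04 (-0.26 and -0.16 with median centring). Imprinted genes (2 rises and 7 falls with median centring) had 1 riser of 18, Peg3, and 1 faller, Ppp1r9a, a neuronal scaffold of protein phosphatase (-1.38, adjusted p = 0.0118). Of 31 proteases and inhibitors, Wfdc1 rose and Spink1 fell (2 rises and 4 falls with median centring).

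Markers of other cell types gave 3 calls among 6 lists, where 2.53% of all genes were called. Of 10 tested fibroblast and smooth muscle markers 0 were called and 3 were undetected on all 4 arrays. The summed intensity of that list was 883 and 905 at 72 h and 966 and 866 at 6 d, so the groups overlapped. Such a sum adds different probes, and the brightest of them weigh most in it. In that list Dcn, a proteoglycan, measured 5.38 and 5.05 and then 6.63 and 6.30 (1.25, adjusted p = 0.0968). Col3a1, a fibrillar collagen, was undetected at 72 h and measured 5.63 and 6.06 at 6 d (adjusted p = 0.0704). Neuroectoderm markers summed to 3196 and 3142 and then to 1980 and 2028. The 1 faller of these 10 was Elavl3 (6 fell with median centring), whose part in the sum was not computed. Trophoblast markers summed to 809 and 952 and then to 1452 and 1155, with 0 of 8 called. Endothelial markers summed to 1778 and 1892 and then to 2127 and 1281. Of 8, the angiopoietin receptor gene Tek rose (1.65, adjusted p = 0.0206) and Robo4 fell (-1.16, adjusted p = 0.0197). None of 7 mesoderm markers was called, with sums of 385 and 379 and then 430 and 422. Macrophage and blood markers, 0 of 5 called, summed to 158 and 166 and then to 239 and 211. Of these, 0 were detected on both 72 h arrays and 1 on both 6 d arrays. Of the 6 lists, the neuroectoderm, mesoderm, trophoblast and macrophage sums did not overlap between the stages. Single genes often separated so on these arrays, since 26.9% of all genes lay higher and 26.6% lower at 6 d without overlap. No such share was computed for sums. The part of such cells in the changes was not tested.

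The same step in Kdm3a knock-down cells was measured on 4 other arrays. There 267 genes rose (2.30%) and 178 fell (1.53%), 3.83% in either direction. Of the 179 control risers, 123 were called in the knock-down (68.7% of the control risers and 46.1% of the knock-down risers), and 178 were higher at 6 d. Of the 115 control fallers, 67 were called there (58.3% and 37.6%), and 112 were lower. Both steps were tested with the same estimate of each gene's spread over all arrays, so their calls are not independent. Over all genes, 79.4% had the same sign in both cell types. The median knock-down change was 1.34 for the control risers and -1.15 for the control fallers, and 0 genes were called in opposite directions. Acta2, Fst and Aqp8 rose by 4.94, 4.22 and 4.10 in the knock-down cells, with adjusted p of 0.000220, 0.000278 and 0.000901. The knock-down changes that lay furthest from the control among the 40 largest were those of Slc16a3 (-1.19, adjusted p = 0.230), Bves (-0.32, adjusted p = 0.610) and Ugt1a10 (1.48, adjusted p = 0.106). The test of the difference between the steps called 0 genes by limma, and 216 genes (1.86%) had p under 0.05 before adjustment. The smallest adjusted p was 1.00, so no difference between the cell types in this step was shown for any gene. The 6 d arrays of equal number deviated alike in the 2 cell types (correlation of deviations from the group mean 0.54), so the 2 sets of 6 d arrays may not be independent.

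**Figure D4:**
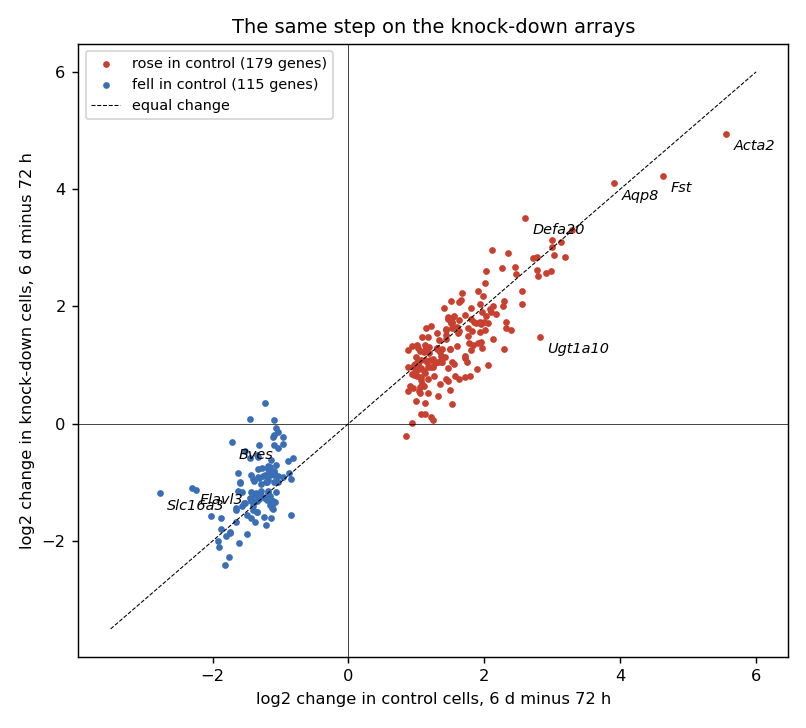
Log2 change from 72 h to 6 d in knock-down cells (vertical axis) against that in control cells (horizontal axis) for the 179 genes that rose (red) and the 115 that fell (blue) in control cells, with the line of equal change dashed. Of these, 178 risers and 112 fallers moved the same way on the knock-down arrays, and Bves and Ugt1a10 lie off the line.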

How the data were processed

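RNA of F9 cultures was measured on 12 Illumina MouseWG-6 v2 arrays, 2 for each of 6 groups taken from the titles. Per the file headers, the authors deposited intensities without normalization, beside a detection p-value, for 45281 probes. How the beads were summarised is not stated in those sources. A processed table of intensities that the authors also deposited, quantile normalized by its values, served only as an alternative. The intensities were background corrected (limma 3.58.1, nec, offset 16; R 4.3.3), quantile normalized and taken to log2. A probe was kept if at least 2 arrays had its detection p under 0.05. The platform annotation gives 1 symbol to 34885 probes (34807 matched RefSeq), several to 18 and none to 10378. The brightest kept probe stood for a gene, which gave 11621 genes. Between 15660 and 18471 probes were detected on each control array. The number of arrays limits the precision.

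The limma model (lmFit, eBayes) held a mean for each group over all arrays, and p-values were adjusted over all genes by Benjamini-Hochberg with a threshold of 0.05 (degrees of freedom: 6 residual, 5.01 prior). On simulated data for the control step (11621 genes, 200 of them changed), the test called 0 of the 200 at a log2 change of 1, 193 at 2 and 199 at 3. Unchanged genes gave 0, 12 and 6 false calls. The simulation gave a gene the same spread in every group and changed few genes. It therefore sets no smallest change for the real step, in which Atf5 was called at 0.99. P-values measure the spread between these arrays, which may be technical. Where neither array of a group detected a gene, "at least" folds set the mean of the bright group against the higher, on each dim array, of the gene's own value and the lowest detected signal. These bounds are for the brightest probe. The second tested probes of Wfdc1, Adh1 and Wnt4 had log2 changes of 1.49, 2.09 and 1.23. The text names the 20 largest called rises and falls without overlap between arrays, up to 5 called members of each list or else 2 with the largest change, list extremes and Kdm3a. Genes given in addition to these were chosen after their values were seen. The comparison and the lists were chosen with earlier results of these data known. Promoters were matched by symbol to RefSeq windows (GRCm38.p6). The alternatives were other background corrections, scalings, filters, probe rules, sample sets and weights, a replicate block, and leaving out arrays. The deviations of equally numbered control arrays of 72 h and 6 d from their group means correlated at -0.11, and those of the other group pairs at up to 0.54, without a shared source in the labels, so the numbers were not taken as pairs.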

Additional observations from a re-analysis of the deposited data

How the results depend on the processing

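The control step had 294 calls, and 445 without background correction, 2195 with median centring (median of all genes moved by -0.45), 182 from the compared groups alone, 125 without the 0 h arrays and 541 with array weights. It had 26 to 173 without 1 array. Settings chosen after seeing the data gave 477 without the 3 arrays that resemble each other on undetected probes and 534 with a term for them. The knock-down step had 445 calls, and 2209 with median centring (moved by -0.42), 19 from the compared groups alone, 220 without the 0 h arrays, 113 with array weights, 28 to 523 without 1 array, 1208 without the 3 arrays and 774 with the term. Rises were 60.9% of the control calls in the chosen setting, 8.34% with median centring and 72.8% without the 0 h arrays. With the replicate number as a block the control step had 442 calls, which include the 294, and the knock-down step 613. With the numbers of the 72 h control arrays exchanged, a crossed replicate block, it had 524. The difference between cell types had 0 calls in each setting run for it, which excludes the crossed block. Of the 85 called genes named, 18 were called in all 4 fits without an array, 21 in none, and 47 in all 13 other planned settings. None of the 85 changed sign in these settings, though single probes of Kif23, Tnfrsf10b and Tgfbr2 moved the other way, as for 19 of the 116 called genes with several probes. Genes that did not pass and whose sign turned were Rplp0 (-0.02), Nid1 (-0.15), Sox7 (-0.10), Sox17 (-0.06) and Col4a1 (0.27) with median centring. Over the fits without 1 array, Lamc1 ran from -0.18 to 0.70, Nid1 from -0.29 to 0.96, Col4a1 from -0.31 to 0.18 and Gata4 from -1.34 to 0.04, the ends being those without a control 6 d array. Without the 3 arrays, Col4a1 stood at 0.18 and Gata4 at 0.04, and with the term Col4a1 stood at 0.21. The cause of these changes was not tested. A change of a gene near background is shrunken by the offset.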
